A study of Mus musculus with 20 samples.

Results

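The unexposed arms of a mouse study were compared here, namely testes of 5 Xpc-/- control mice and testes of 5 Wt control mice, which are 10 of the 20 arrays of the series. The other 10 arrays hold 5 Xpc-/- and 5 Wt mice given a single gavage of 13 mg/kg bw benzo(a)pyrene (B[a]P). They served as a second set of mice of the same genotypes. They also entered the shared estimate of spread behind the p-values, the principal components and the mean signals of probes. The members were chosen by title alone, and all 20868 probes of the array were kept. All mice were male, both genotypes carried the strain label C57BL/6, and the unexposed mice had been given sunflower oil, the solvent of B[a]P, with testes taken at day 4. Xpc-/- mice lack functional Xpc in every cell, and Wt mice are the C57BL/6 strain itself. Each array carried whole testis RNA of 1 mouse in Cy5 beside a Cy3 reference pool from 3 unexposed Wt mice that were not among the samples. Values are log2 signals corrected for that reference. A difference is the mean of Xpc-/- minus the mean of Wt mice, so that a positive one means a higher signal in Xpc-/- testis.

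Xpc encodes the protein that scans the genome for helix-distorting lesions and starts global genome nucleotide excision repair (NER), in which Tfiih opens the helix, a pair of nucleases cuts out the damaged strand and polymerases fill the gap. Lesions that stall RNA polymerase are instead handled by the transcription-coupled branch, which does not need Xpc. In testis, spermatogonia divide, spermatocytes pass through meiosis and spermatids mature into sperm, among Sertoli cells and hormone-producing Leydig cells. The comparison asks how far the transcriptome of testis differs when Xpc is missing and no carcinogen has been given.

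The tissue label was checked against markers. Sycp3 (synaptonemal complex of spermatocytes), Acrv1 (acrosome of spermatids), Wt1 (Sertoli cells) and Cyp17a1 (steroid synthesis in Leydig cells) lay in the brightest of 4 equal bins of probes by mean signal, whereas Lcn5 of the epididymis and Ptprc of white blood cells lay in the dimmest bin. Within the unexposed mice, 2 arrays stood apart. Xpc-/- control 1 and 2 scored 38.4 and 40.5 on the first principal component, which held 24.5% of the variance, against -18.7 to 8.1 for the other 18. They correlated at 0.964 to 0.974 with Xpc-/- control 3 to 5, which correlated at 0.992 to 0.994 among themselves and at 0.986 to 0.994 with Wt control mice. The Wt control arrays correlated at 0.987 to 0.994 among themselves. The main counts and the differences of the named genes are therefore also given without Xpc-/- control 1 and 2.

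**Figure D1:**
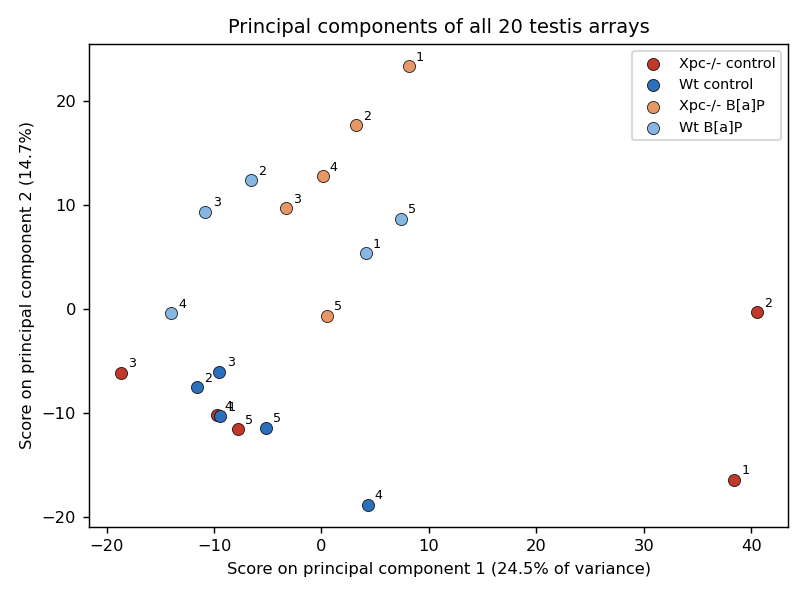
Scores of the 20 arrays on the first 2 principal components of the log2 signals, 1 point per mouse, numbered by replicate and coloured by group. Xpc-/- control 1 and 2 lie at 38.4 and 40.5 on the horizontal axis, and the other 18 arrays lie between -18.7 and 8.1.

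Few probes differed by much between testes of unexposed Xpc-/- and Wt mice. At an adjusted p under 0.05, limma called 0 of 20868 probes (0.0%), and the smallest adjusted p was 0.123. At an unadjusted p under 0.05 there were 466 higher (2.23%) and 460 lower (2.2%). The difference stayed within 0.25 log2 for 93.3% of the probes and passed 0.5 for 28 of them, while the median 95% confidence interval reached 0.245 to either side of a difference. Of all probes, 3 passed 1 log2, and 7 did without Xpc-/- control 1 and 2. Without Xpc-/- control 1 and 2, 3 probes were called (0.0144%), 2 higher (0.00958%) and 1 lower (0.00479%), and 386 had an unadjusted p under 0.05 (1.85%). The groups did not overlap for 62 probes that were higher (0.297%) and 92 that were lower (0.441%), which together make 154 probes (0.738%). There every Xpc-/- value lies on one side of every Wt value. Over all genes the differences ran from -1.22 to 1.51, and the genes at both ends had groups that overlapped. With 3 Xpc-/- mice against 5 Wt mice, leaving out Xpc-/- control 1 and 2, this held for 393 higher (1.88%) and 408 lower (1.96%), 801 in all (3.84%).

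**Figure D2:**
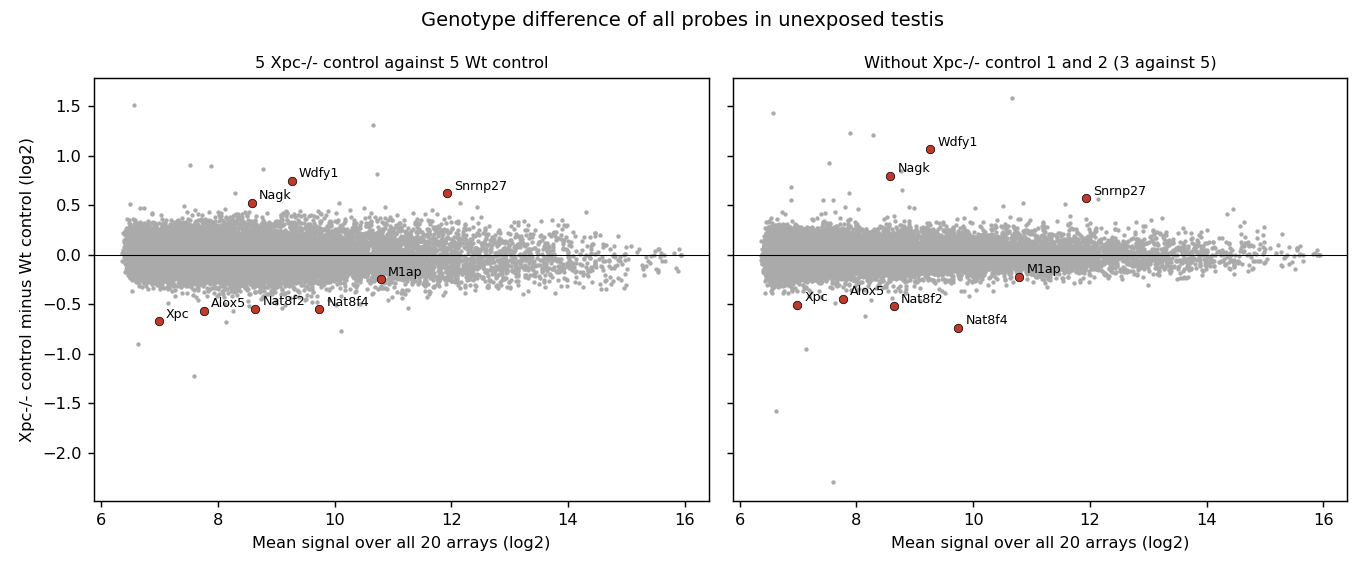
Difference between Xpc-/- control and Wt control mice (log2, vertical) against the mean signal over all 20 arrays (log2, horizontal), 1 point per probe, for 5 against 5 mice at left and without Xpc-/- control 1 and 2 at right. Of the probes, 93.3% at left and 97.4% at right lie within 0.25 log2 of 0, and the 8 marked genes are Snrnp27, Nagk and Wdfy1 above 0 and Xpc, Nat8f2, Nat8f4, M1ap and Alox5 below it.

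Xpc itself was lower in Xpc-/- testis. Its signal was 6.26, 6.69, 6.74, 6.99 and 6.91 in Xpc-/- control 1 to 5, against 7.35, 7.10, 7.50, 7.37 and 7.64 in Wt control 1 to 5. All 5 Xpc-/- mice were below all 5 Wt mice, and Xpc-/- control 1 was the lowest. The difference was -0.67 (95% confidence interval -0.95 to -0.40), a level in Wt mice 1.59 times that in Xpc-/- mice. An exact two-sided permutation test over all splits of 5 against 5 mice gave p = 0.00794, the smallest it can give, while limma across all probes gave an adjusted p of 0.162. Without Xpc-/- control 1 and 2 the difference was -0.51 (adjusted p = 1.0). The mean of 6.72 in Xpc-/- mice falls in the range of the dimmest bin of probes, 6.36 to 6.91. Where the probe lies relative to the disrupted part of Xpc was not given in the sources used here.

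Snrnp27, Nat8f2 and Nat8f4, which lie near Xpc on chromosome 6, also had groups that did not overlap. Snrnp27 encodes a protein of the U4/U6.U5 small nuclear ribonucleoprotein of the spliceosome. Its signal was 12.00, 12.31, 12.04, 12.12 and 11.92 in Xpc-/- control mice, against 11.46, 11.42, 11.48, 11.38 and 11.54 in Wt control mice. The groups were separated by a gap, and Xpc-/- control 1 and 2 were not apart from the other Xpc-/- mice. Snrnp27 was thus 1.54-fold higher in Xpc-/- testis (log2 difference 0.62, 95% confidence interval 0.39 to 0.85, adjusted p = 0.123), and 0.57 higher without the 2 arrays (adjusted p = 0.286). In the exposed mice, whose values are independent of these, the difference was 0.76 (adjusted p = 0.00375), with 12.60, 12.46, 12.42, 12.73 and 12.11 in Xpc-/- B[a]P mice, against 11.52, 11.81, 11.53, 11.76 and 11.92 in Wt B[a]P mice. That probe was the only 1 called between exposed Xpc-/- and exposed Wt mice (0.00479% of probes).

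Nat8f2 and Nat8f4 are neighbouring members of the N-acetyltransferase 8 family, relatives of the enzyme that acetylates cysteine conjugates. Nat8f2 was at 8.34, 8.08, 8.14, 8.39 and 8.31 in Xpc-/- control mice, against 8.87, 8.78, 8.65, 8.91 and 8.78 in Wt control mice. Nat8f4 was at 9.62, 9.76, 9.15, 9.37 and 9.12 in Xpc-/- control mice, against 9.95, 9.96, 9.83, 9.97 and 10.08 in Wt control mice. For both genes every Xpc-/- mouse was below every Wt mouse, and for Nat8f4 the arrays of Xpc-/- control 1 and 2 lay closest to the Wt values. The difference was -0.55 for Nat8f2 (adjusted p = 0.162) and -0.55 for Nat8f4 (adjusted p = 0.265). Without Xpc-/- control 1 and 2, Nat8f4 fell by 0.74 (adjusted p = 0.00795) and Nat8f2 had -0.52 (adjusted p = 0.624). In exposed mice the differences were -0.52 for Nat8f2 and -0.46 for Nat8f4, with groups that did not overlap, although the highest Xpc-/- and the lowest Wt value of Nat8f4 both round to 9.91. The other measured members were Nat8f5 at -0.39, Nat8f1 at -0.14, Nat8f3 at 0.13 and Nat8 at 0.17, all with overlapping groups, and without the 2 arrays they had -0.42, -0.04, 0.09 and 0.36 in this order. In exposed mice they had -0.783, -0.036, 0.119 and -0.231 in the same order, so Nat8f5 differed by more there than Nat8f2 and Nat8f4. Sequence similarity between members may let a probe read more than 1 of them, which was not tested.

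The start regions of these neighbours are shown because Snrnp27 was higher and the Nat8f genes were lower within the same stretch of chromosome 6. Each is 300 bases long, 250 before and 50 after a transcription start of RefSeq on the build GRCm38.p6, read on the strand of the gene. All 4 windows are on the minus strand, Snrnp27 at chr6:86684442-86684741, Nat8f2 at chr6:85869088-85869387, and Nat8f4 at chr6:85904889-85905188 and chr6:85902484-85902783 for its 2 starts. Capitals mark the GC box GGGCGG, the TATA box TATAAA, the cAMP response element TGACGTCA and the CCAAT box CCAAT, searched on both strands with overlaps allowed.
Snrnp27: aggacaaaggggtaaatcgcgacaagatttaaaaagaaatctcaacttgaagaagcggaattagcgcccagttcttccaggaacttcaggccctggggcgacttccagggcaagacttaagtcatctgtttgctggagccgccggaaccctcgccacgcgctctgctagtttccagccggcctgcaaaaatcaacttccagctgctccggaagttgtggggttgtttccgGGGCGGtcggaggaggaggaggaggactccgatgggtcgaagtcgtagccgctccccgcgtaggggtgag
Nat8f2: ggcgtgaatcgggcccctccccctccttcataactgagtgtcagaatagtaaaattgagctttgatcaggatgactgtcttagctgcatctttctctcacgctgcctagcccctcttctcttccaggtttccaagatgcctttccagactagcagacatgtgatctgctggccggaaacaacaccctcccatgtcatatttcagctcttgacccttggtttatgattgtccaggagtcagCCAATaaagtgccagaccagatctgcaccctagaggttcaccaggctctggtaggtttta
Nat8f4 first window: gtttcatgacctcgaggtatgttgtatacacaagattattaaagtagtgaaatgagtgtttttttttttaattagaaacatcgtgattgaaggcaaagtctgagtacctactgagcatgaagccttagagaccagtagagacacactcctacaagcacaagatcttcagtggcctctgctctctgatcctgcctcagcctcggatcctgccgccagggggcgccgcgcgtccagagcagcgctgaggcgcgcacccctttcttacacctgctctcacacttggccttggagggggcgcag
Nat8f4 second window: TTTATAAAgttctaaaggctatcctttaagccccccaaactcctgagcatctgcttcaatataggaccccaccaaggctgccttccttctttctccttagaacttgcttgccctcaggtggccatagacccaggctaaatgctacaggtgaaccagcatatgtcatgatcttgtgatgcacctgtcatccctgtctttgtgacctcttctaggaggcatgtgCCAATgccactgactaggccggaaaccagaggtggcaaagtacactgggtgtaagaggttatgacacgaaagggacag

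Snrnp27 held 1 GC box and no other motif, and GGGCGG occurs in 35.7% of 32851 promoter windows. Nat8f2 held 1 CCAAT box, found in 37.4% of windows. The second window of Nat8f4 held 1 CCAAT box and 2 overlapping TATA matches, a motif found in 13.6% of windows, and the first held none of the 4. The response element TGACGTCA, found in 1.79% of windows, was in none of these. The Nat8f2 window was 70.5% identical to the first and 77.1% to the second Nat8f4 window over the aligned bases. By the same alignment the 2 Nat8f4 windows were 69.7% identical to each other. Windows of unrelated genes were not aligned, so these shares have no background value. These matches describe letters only.

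**Figure D3:**
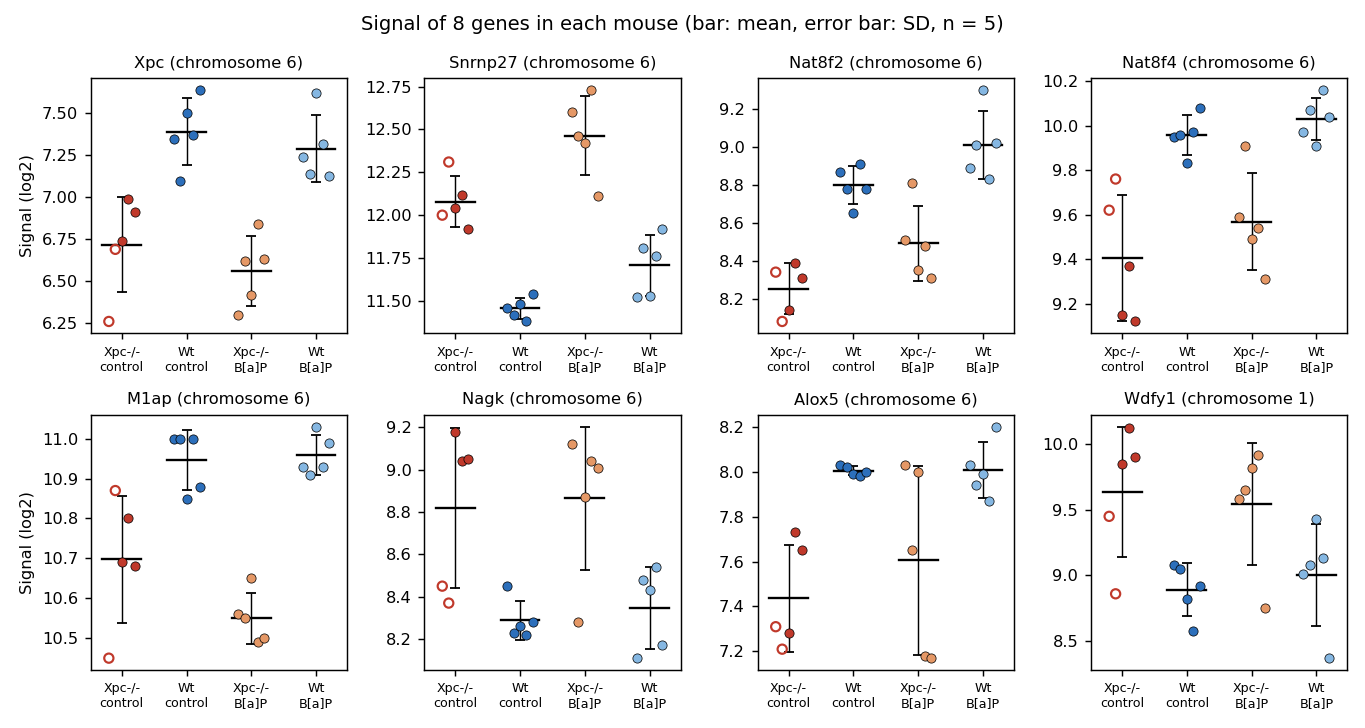
Log2 signal of 8 genes in each mouse of the 4 groups, with the mean as a bar and the SD as an error bar (n = 5), and Xpc-/- control 1 and 2 as open circles. For Xpc, Snrnp27, Nat8f2 and Nat8f4 the genotypes do not overlap in unexposed or in exposed mice, while for Nagk the open circles lie with the Wt mice.

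M1ap, a gene required in male meiosis and expressed in germ cells, lies in the same region. It was at 10.45, 10.87, 10.69, 10.80 and 10.68 in Xpc-/- control mice, against 11.00, 11.00, 10.85, 11.00 and 10.88 in Wt control mice. The groups overlapped through Xpc-/- control 2, and the difference was -0.25 (adjusted p = 0.894), and -0.22 without Xpc-/- control 1 and 2. Among exposed mice the groups did not overlap, with a difference of -0.41 (adjusted p = 0.539).

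Nagk and Wdfy1 were called when Xpc-/- control 1 and 2 were left out. Nagk, the kinase that salvages N-acetylglucosamine, was at 8.45, 8.37, 9.18, 9.04 and 9.05 in Xpc-/- control mice, against 8.45, 8.23, 8.26, 8.22 and 8.28 in Wt control mice. Xpc-/- control 1 and 2 were at the level of Wt mice and the other 3 were above it. Nagk rose by 0.80 without the 2 arrays (adjusted p = 0.015), and with them the difference was 0.53 (adjusted p = 0.894). Wdfy1 on chromosome 1, whose product binds phosphatidylinositol 3-phosphate on endosomes, was at 9.45, 8.86, 9.85, 10.12 and 9.90 in Xpc-/- control mice, against 9.08, 9.05, 8.82, 8.58 and 8.92 in Wt control mice. Here Xpc-/- control 2 lay among the Wt values and Xpc-/- control 1 above them. Wdfy1 rose by 1.06 without the 2 arrays (adjusted p = 0.015), against 0.74 with them (adjusted p = 0.894). The 3 calls depended on single arrays: 0 were left without Xpc-/- control 3 or without Xpc-/- control 5, and 1 without Xpc-/- control 4 or without Wt control 4.

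Genes whose groups did not overlap made up a larger share near Xpc than elsewhere. The 20 Mb to either side of Xpc held 217 other measured genes, of which 3 were higher and 6 lower with groups that did not overlap, 4.15% against 0.701% of all 16966 genes. The share was 0.707% over the 707 remaining genes of chromosome 6 and 0.642% over the other chromosomes, and within 10 Mb it was 4.85% of 165 genes. Without Xpc-/- control 1 and 2 the window held 24 such genes, 11.1% against 3.98% of all genes. Neighbouring genes share a chromosome, so they are not independent, and no test was made. Over the whole of chromosome 6 the share was 1.62% of 925 genes, while the other chromosomes had 0.182% to 1.14%. This order did not hold without Xpc-/- control 1 and 2, when chromosome 6 had 5.51%, below chromosome 15 at 5.99% and chromosome 19 at 5.71%.

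Besides Snrnp27, Nat8f2 and Nat8f4, that window held 6 such genes. Mogs, the glucosidase that trims the first glucose from N-glycans, had a difference of 0.28 and 0.23 without Xpc-/- control 1 and 2. Edem1, which sorts misfolded glycoproteins for degradation, had 0.24 and 0.15 without them. Nup210, a membrane protein of the nuclear pore, was at 7.49, 6.84, 7.49, 7.67 and 7.44 in Xpc-/- control mice, against 7.76, 7.89, 7.91, 7.83 and 7.85 in Wt control mice. Xpc-/- control 2 was the lowest of these, and the difference was -0.46 with it and -0.31 without Xpc-/- control 1 and 2. Kbtbd12, of the kelch repeat family, had -0.28 and -0.27 without the 2 arrays. Copg1, of the COPI vesicle coat, had -0.22 and -0.10 without the 2 arrays. Magi1, a scaffold of cell junctions, had -0.38 with Xpc-/- control 1 and 2 and -0.05 without, and -0.20 without Xpc-/- control 2 alone. None of the 6 passed the test (adjusted p = 0.894 for each).

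**Figure D4:**
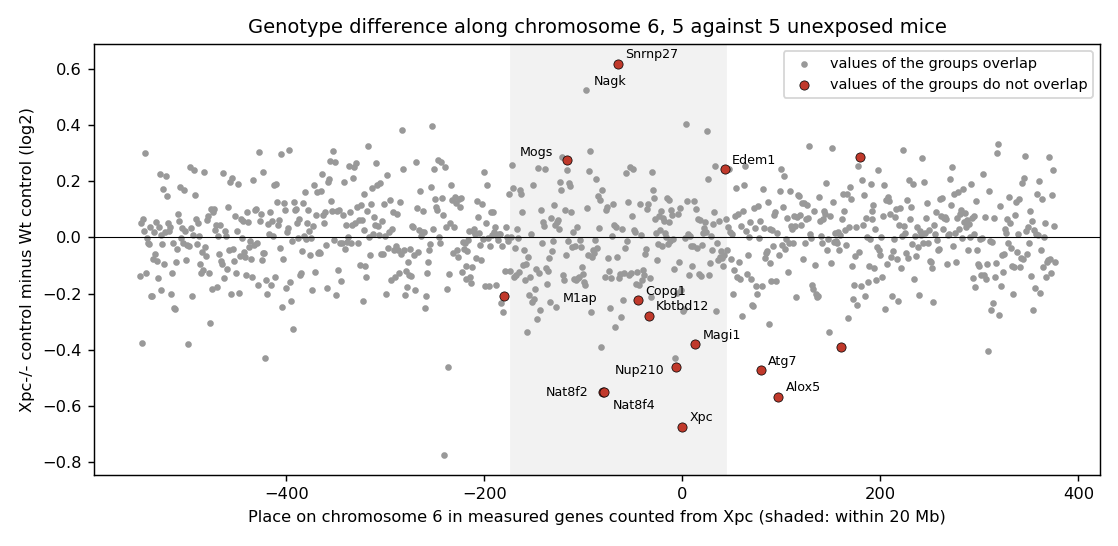
Difference between Xpc-/- control and Wt control mice (log2, vertical) for the measured genes of chromosome 6, set out by their place in the gene order counted from Xpc (horizontal). Red points are genes whose 5 Xpc-/- and 5 Wt values do not overlap, and the shaded stretch, within 20 Mb, holds Xpc and 9 others, 4.15% of its 217 other genes.

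Of the 10 largest non-overlapping decreases of named genes, 6 were on chromosome 6, which carries 5.45% of the genes, and of the 10 largest increases 1 was. Besides Xpc, Nat8f2, Nat8f4 and Nup210, chromosome 6 held Alox5, which makes the leukotriene precursor, and Atg7, an activating enzyme of autophagy. Alox5 was at 7.31, 7.21, 7.28, 7.73 and 7.65 in Xpc-/- control mice, against 8.03, 8.02, 7.99, 7.98 and 8.0 in Wt control mice. The Wt values were tight and all Xpc-/- values lay below them (-0.57, adjusted p = 0.894, and -0.45 without Xpc-/- control 1 and 2), but a second Alox5 probe had -0.04. Atg7 had -0.47, and -0.28 without Xpc-/- control 1 and 2.

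The other decreases were Tns2, a tensin of focal adhesions, at -0.57 (adjusted p = 0.255), Spns1, a lysosomal lipid transporter, at -0.54 (adjusted p = 0.214), the pseudogene Speer5-ps1 at -0.54 (adjusted p = 0.272) and Insig2, which holds back cholesterol synthesis, at -0.51. Without Xpc-/- control 1 and 2 the differences were -0.46 for Tns2, -0.47 for Spns1 and -0.33 for Speer5-ps1. Insig2 had -0.16 without Xpc-/- control 1 and 2, which were at 8.59 and 8.38 against 9.24 to 9.40 in Xpc-/- control 3 to 5 and 9.43 to 9.65 in Wt control mice. The increases besides Snrnp27 were Usp33, a deubiquitinating enzyme, at 0.52, AY036118 at 0.48, Tnrc18 at 0.44, the Wnt pathway transcription factor Tcf7l2 at 0.41, the Myc relative Bmyc at 0.36, the amino acid transporter Slc7a13 and the serine protease Prss28 at 0.35 each, the peptide amidating enzyme Pam at 0.33 and the ciliary protein Dzip1 at 0.32. Each of these 9 had an adjusted p of 0.894, and without Xpc-/- control 1 and 2 their differences lay between 0.22 (Slc7a13) and 0.37 (Bmyc), with 0.28 for Usp33. Dzip1 rested partly on Wt control 4, which was at 8.39 with the next Wt mouse at 9.10, and had 0.17 without that mouse. Usp33, Bmyc, Slc7a13 and Prss28 were in the dimmest bin of probes. A second and brighter Usp33 probe had -0.08. Without Xpc-/- control 1 and 2 that probe had -0.22, with groups that did not overlap, so the increase was not seen there. A second and dimmer Dzip1 probe had 0.07.

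The exposed mice gave a second reading of these 20 genes. The sign was the same there for 17, of which 6 had an unadjusted p under 0.05 and 4 had groups that did not overlap. Over all probes, counted in either direction, the shares were 4.33% and 0.748%. The 4 were Xpc, Snrnp27, Nat8f2 and Nat8f4, and the 6 were these with Alox5 and Nup210. All 6 are on chromosome 6. Among the genes on other chromosomes, the lowest unadjusted limma p in exposed mice was 0.0609 (Pam). Over all 154 non-overlapping probes the sign was the same for 57.8%, close to the 56.5% of all probes. Tns2 had -0.57 in unexposed and -0.02 in exposed mice, and Prss28 had 0.35 and -0.07. For none of the 28 named genes did limma's interaction term, adjusted over all probes, pass the threshold (adjusted p = 0.999 for each). This does not show that the 2 differences were equal. The unadjusted interaction p was 0.00344 for Tns2, 0.00624 for Prss28, 0.0192 for Tcf7l2, 0.022 for Bmyc, 0.0372 for Spns1 and 0.0482 for Slc7a13. These genes had been chosen by their differences in unexposed mice. The other named genes had an unadjusted interaction p of 0.0533 or more. Beside Xpc, Snrnp27, Nat8f2 and Nat8f4, only Shpk on chromosome 11, Nalcn on chromosome 14 and Macir on chromosome 1 had non-overlapping groups in the same direction in both pairs, 7 probes in all (0.0335%). Their differences in unexposed and in exposed mice were 0.16 and 0.28 for Shpk, 0.25 and 0.25 for Nalcn and -0.31 and -0.43 for Macir.

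The other genes of NER did not pass the test. Of 49 measured genes in 4 lists (damage recognition, transcription-coupled repair, verification and incision, gap filling), 0 were called, 0 were higher and 4 lower at an unadjusted p under 0.05, and the median difference was -0.00, as against -0.01 over all genes. At this threshold 2.24% of all genes were higher and 2.32% lower. The 4 were Xpc, the helicase Ercc2 of Tfiih at -0.24, the polymerase Polk at -0.28 and the clamp loader subunit Rfc4 at -0.33. Rfc4 had 0.04 without Xpc-/- control 1 and 2, which were at 10.06 and 10.62 against 11.15 to 11.38 in Xpc-/- control 3 to 5. Without these arrays Ercc2 had -0.22 and Polk -0.16, and neither had an unadjusted p under 0.05. The 4 lists then held 2 higher and 1 lower at that threshold, against 0.973% and 0.914% of all genes, with a median of 0.02. The 2 higher were Cul4b, a cullin of the ubiquitin ligase that holds Ddb2, at 0.31 and the elongation factor Tcea1 at 0.35, and the lower was Xpc. The partners of Xpc had 0.01 for Rad23b and -0.07 for Cetn2, and 0.18 and 0.16 without the 2 arrays. Ddb2, which hands lesions to Xpc, had 0.18 and then 0.08. List averages of Xpc-/- control 1 and 2 were below those of the other 8 unexposed mice for damage recognition (-0.28 and -0.30), for verification and incision (-0.19 and -0.29) and for gap filling (-0.07 and -0.06), and above them for transcription-coupled repair (0.20 and 0.15). The damage recognition list includes Xpc itself, and for gap filling Wt control 3 also rounds to -0.06. Whether the standing apart of Xpc-/- control 1 and 2 has a part in these list averages was not tested.

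Across all 31 lists, from DNA repair and the cell cycle to cell types of the testis, 0 had a called member, and with Xpc-/- control 1 and 2 left out 1 had, the Nat8 family through Nat8f4. List medians ran from -0.27 to 0.19, and from -0.23 to 0.27 without the 2 arrays. In whole tissue, fewer cells of a type and less RNA per cell cannot be told apart. Among 52 genes of the G2-M phases 5 were lower and 0 higher at an unadjusted p under 0.05, with a median of -0.06. Over all genes 2.32% were lower and 2.24% higher. Without Xpc-/- control 1 and 2 the G2-M counts were 0 and 0, and the median was 0.00. Over all genes 0.914% were then lower and 0.973% higher. Plk1, a kinase of mitotic entry, was at 10.68, 10.32, 11.34, 10.99 and 10.93 in Xpc-/- control mice, against 11.15, 11.24, 11.22, 11.50 and 11.30 in Wt control mice. Its lowest values were those of Xpc-/- control 1 and 2, and its difference was -0.43 with them and -0.20 without. The list average was -0.16 and -0.25 in these mice, against -0.07 to 0.10 in Xpc-/- control 3 to 5 and -0.04 to 0.04 in Wt mice.

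Spermatocyte genes had differences in both directions, with 3 of 34 higher and 2 lower at an unadjusted p under 0.05. Only 10 of the 34 had a positive difference, and the list median was -0.05. Without Xpc-/- control 1 and 2, 21 had a positive difference and the median was 0.02. Over all genes 2.24% were higher and 2.32% lower. Sycp1 and Syce2, of the synaptonemal complex that joins paired chromosomes, had 0.41 and 0.35, while Ccna1, the germ cell cyclin, had -0.30. For Syce2 the values were 14.42, 14.56, 13.74, 13.88 and 13.87 in Xpc-/- control mice, against 13.83, 13.65, 13.78, 13.73 and 13.72 in Wt control mice. Only Xpc-/- control 1 and 2 were clearly above the rest, and without them Syce2 had 0.09, Sycp1 had 0.21 and Ccna1 had -0.19. The list then held 0 higher and 1 lower, M1ap, against 0.973% and 0.914% of all genes. Of 27 Sertoli cell genes 3 were lower and 0 higher with all arrays, against 2.32% and 2.24% of all genes. These 3 were Wt1 at -0.42, the protease Ctsl at -0.40 and the cystatin Cst12 at -0.39. Without Xpc-/- control 1 and 2 they had -0.11, -0.06 and 0.01. The lists of spermatogonia (19 genes), round spermatids (29) and elongating spermatids (28) had medians of -0.02, -0.03 and -0.00, and of -0.01, -0.00 and -0.00 without them.

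In the fat list, 9 of 9 genes had a positive difference, against 8217 of all 16966 genes. The median was 0.19, and 0.27 without Xpc-/- control 1 and 2. At an unadjusted p under 0.05 there were 2 higher, against 2.24% of all genes. Car3, a carbonic anhydrase abundant in fat, was at 7.38, 8.48, 7.43, 9.33 and 7.23 in Xpc-/- control mice, against 6.96, 6.88, 6.79, 7.89 and 6.82 in Wt control mice. Xpc-/- control 4 was the highest, and Wt control 4 lay among the Xpc-/- values. The list average was 0.14, 0.39, 0.17, 0.85 and 0.07 in Xpc-/- control mice, against -0.03, 0.03, -0.06, 0.19 and -0.12 in Wt control mice, and Car3 had a difference of 0.90, of 0.93 without Xpc-/- control 1 and 2 and of -0.34 in exposed mice. The Leydig list spread over -0.51 to 0.61 among Wt mice, wider than the 0.07 to 0.25 of Xpc-/- mice.

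**Figure D5:**
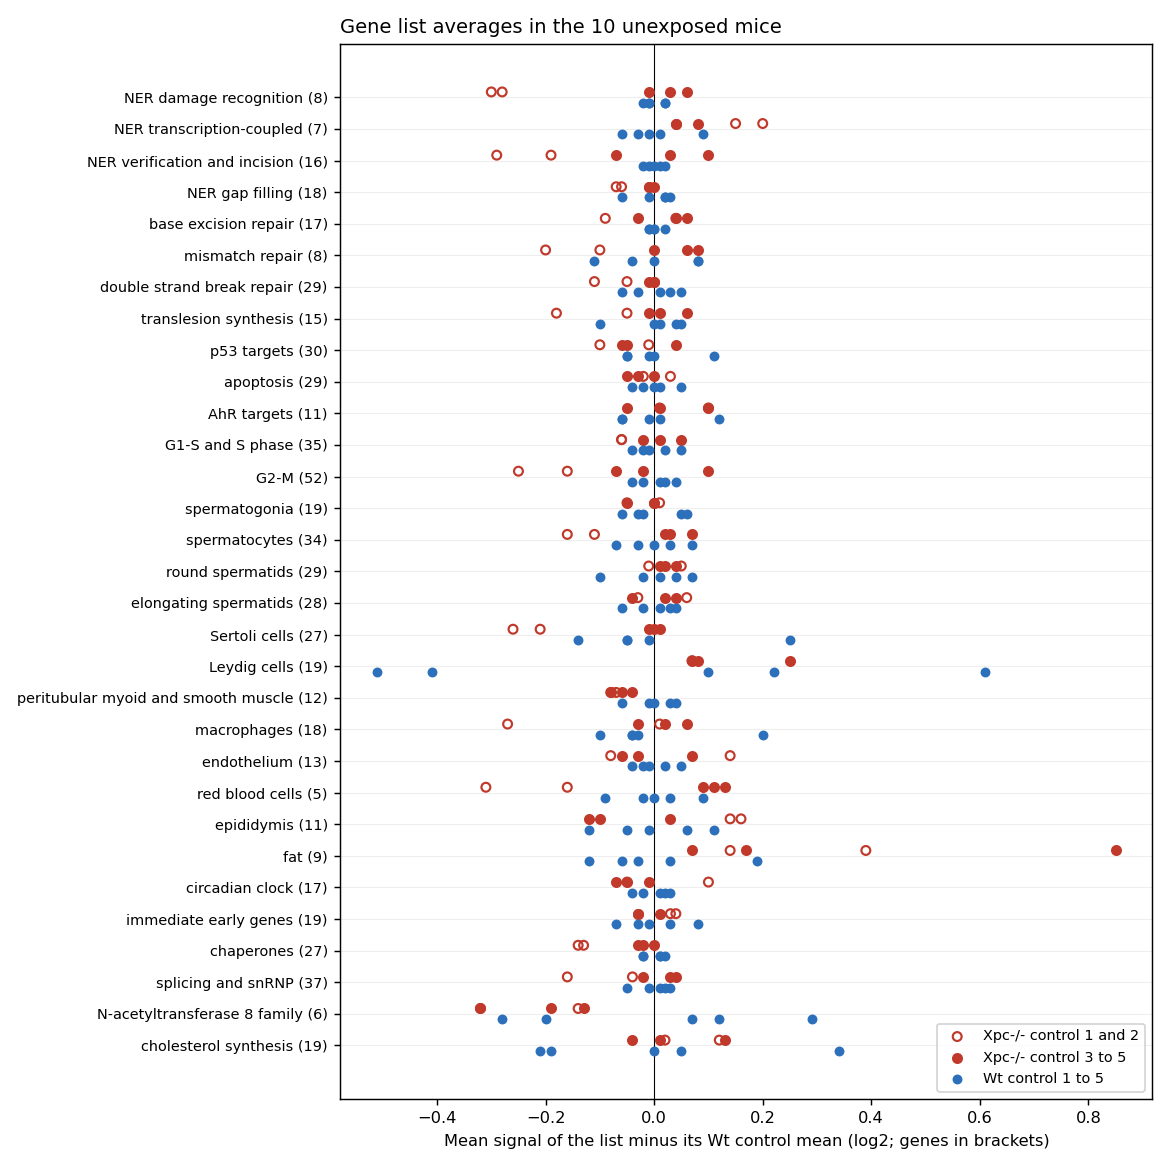
Average log2 signal of each gene list in each of the 10 unexposed mice, relative to the Wt control mean (horizontal), with lists down the page and the number of measured genes in brackets. Xpc-/- control 1 and 2 (open circles) lie outside the other 8 mice in 11 of 31 lists, below them in 9 and above them in 2.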

How the data were processed

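The authors labelled testis RNA of 20 mice with Cy5 and a Wt pool with Cy3, read Agilent 22K Mouse arrays with Imagene, took natural logs, quantile normalized the scans, adjusted each Cy5 spot by its Cy3 partner and averaged spots of a probe. Local background subtraction and genome build were not given in the sources used here. The deposited values are natural log (ln) signals, with column medians of 5.23 to 5.24, and were divided by the natural log of 2, giving log2 values. Quantile normalization forces equal overall distributions, and a signal near the floor of the array compresses differences. Precision is limited by the number of arrays.

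Of 20868 probes, 18303 carry 1 symbol and 2565 none, and 18134 matched by Entrez ID to RefSeq of GRCm38.p6, which gave names, neighbours and promoters. One list alias (Abp1), paired with another gene there, was skipped. The brightest probe stood for a gene in counts of genes and in lists, while the named largest differences were drawn from all probes with a symbol. limma 3.58.1 (R 4.3.3) fitted 4 group means to all 20 arrays, with Benjamini-Hochberg adjustment over all probes at 0.05, and was tested on simulated data. An ordinary linear model of the same 4 group means, without moderated variances, was an alternative for this contrast. The genotype factor over all 20 arrays of the authors' two-way analysis of variance was fitted as a limma contrast but is not reported here. Named were the genes the study names, the 10 largest differences per direction among non-overlapping genes, called genes, non-overlapping genes within 20 Mb of Xpc, and up to 4 list members with the smallest p. Of the genes named, Shpk, Nalcn, Macir, Nat8 and Nat8f1 were chosen after their values were seen, and tissue markers only served the check of the label. The groups, genes and lists were chosen with earlier results of these data known.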

Additional observations from a re-analysis of the deposited data

Results flagged for a closer look

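In 9 of 118 groups of 5 mice, 1 mouse stood so far from the others that its gap exceeded Dixon's 95% critical value of 0.71 of the range, where chance flags about 1 in 20 groups. Among single genes (log2 signal), Usp33 was at 7.53 in Xpc-/- control 2, with the next at 6.71, Tcf7l2 at 8.16 in Xpc-/- control 1, with the next at 7.73, and Nup210 at 6.84 in Xpc-/- control 2, with the next at 7.44. In Wt control mice, Nagk was at 8.45 in mouse 1, Dzip1 at 8.39 and Kbtbd12 at 7.21, both in mouse 4. Among list averages (log2, relative to the Wt control mean), the Leydig list was at 0.25 in Xpc-/- control 5, and the macrophage list at -0.27 in Xpc-/- control 1 and at 0.20 in Wt control 3.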

How the results depend on the processing

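The count of probes called between unexposed Xpc-/- and Wt mice was 0, and 0 with each of the 10 arrays left out in turn (range 0 to 0), with the unexposed arrays alone, the replicate block, the ordinary linear model, median centring, repeated quantile normalization, an intensity trend with a robust prior, the dimmest of 4 bins of probes left out, or probes of a gene averaged. It was 3 without Xpc-/- control 1 and 2, and 9 with array weights, which let arrays far from the fit count less. Those 9 were Nagk, Nat8f2, Nat8f4, Snrnp27, Spns1, Ube2l6, Wdfy1, Xpc and 1 unnamed probe, and Xpc then fell by 0.51 (adjusted p = 0.0444). Under the other alternatives its adjusted p was 0.109 to 1.0. The count of 3 ranged from 0 to 4 when a further array was left out, and was 0 with the ordinary linear model, 2 with the replicate block and 4 with the unexposed arrays alone. The replicate numbers were not taken to pair mice. Deviations of unexposed mice from their group means, correlated over probes, gave -0.227 to 0.0733 for same-numbered Xpc-/- and Wt mice. Differently numbered mice gave -0.369 to 0.31. Within 20 Mb of Xpc, the genes with non-overlapping groups numbered 9, and 24 without Xpc-/- control 1 and 2, a setting chosen after seeing the data. None of the 535 gene and setting pairs of the other 27 named genes reversed, and 9 newly passed the threshold. Most of these genes were chosen because their groups did not overlap, so leaving out or weighting arrays could not reverse their sign. The size of a difference did change, as for Insig2 at -0.51 with all arrays and -0.16 without Xpc-/- control 1 and 2. Of the 31 lists, 18 had counts at an unadjusted p under 0.05 that moved by over 1.5 times without the 2 arrays. Signals in the range of the dimmest bin of probes, 6.36 to 6.91, limit how low a level can be read.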

Other observations

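Across both treatments, 10 Xpc-/- mice can be set against the range of all 10 Wt mice. Xpc and Snrnp27 had 10 of 10 Xpc-/- mice outside that range, below and above it in that order. M1ap had 9 below, with Xpc-/- control 2 inside, and Nat8f2 and Nat8f4 had 9 below, with Xpc-/- B[a]P 2 inside for both. Nagk split into 2 levels: Xpc-/- control 1 and 2 and Xpc-/- B[a]P 2 lay at 8.28 to 8.45, within the 8.11 to 8.54 of Wt mice, and the other 7 Xpc-/- mice lay at 8.87 to 9.18. For Alox5, Xpc-/- B[a]P 1 and 3 lay at 8.0 to 8.03, within the 7.87 to 8.2 of Wt mice. The other 8 Xpc-/- mice were spread over 7.17 to 7.73, without a clear split into 2 levels. For Wdfy1 on chromosome 1, Xpc-/- control 2 and Xpc-/- B[a]P 5 lay at 8.75 to 8.86, within the 8.37 to 9.43 of Wt mice, and the other 8 at 9.45 to 10.12. At least 7 of 10 Xpc-/- mice were outside the Wt range on one side, a threshold chosen after the values were seen, for 8 of 218 genes within 20 Mb of Xpc, itself included (3.67%), against 0.707% of the rest of chromosome 6, 0.422% of other chromosomes and 0.477% of all genes.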
